A study of Mus musculus with 8 samples.

Results

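The Hox genes examined here were the protein-coding genes of the mm9 annotation (GENCODE M1) whose symbols start with Hoxa, Hoxb, Hoxc or Hoxd and a number. There were 39 of them among 22367 protein-coding gene models on chromosomes 1 to 19, X and Y. The Hoxa cluster on chromosome 6 held 11 of them, the Hoxb cluster on chromosome 11 held 10, and the Hoxc cluster on chromosome 15 and the Hoxd cluster on chromosome 2 held 9 each. Hoxa3 has a pair of gene models in this annotation, which were joined. A cluster was measured from the first to the last base of its Hox genes, and a region was the cluster with 50 kb on each side. The clusters spanned 105.509 kb (Hoxa), 173.941 kb (Hoxb), 115.741 kb (Hoxc) and 96.834 kb (Hoxd).

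H3.3 is the histone H3 variant that cells load without copying their DNA, and the chaperone HIRA places it at many active genes. H3.3 carrying an HA tag was mapped by native chromatin immunoprecipitation with an anti-HA antibody and sequencing of the bound DNA (H3.3-HA ChIP-seq). The cells were mouse embryonic stem cells (mESCs). The W9.5 line was the wild type (WT), and the Hira-null line was 1 clone (Clone104), so clone and genotype cannot be told apart. Both lines carried HA-tagged H3.3 and were sampled at day 0, undifferentiated, and at day 15 of differentiation towards cardiomyocytes through embryoid bodies, which hold other cell types as well. Each of the 4 conditions had 1 ChIP library, so no value below has a replicate and no difference was tested.

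Hox genes encode homeodomain transcription factors that give cells their position along the body axis. They lie in the cluster in the order in which they are used: paralogs with low numbers are active early and towards the head, and those with high numbers late and towards the tail. In mESCs the clusters are a classic target of Polycomb repression and are largely silent. Retinoic acid, caudal proteins and the TALE cofactors Meis, Pbx and Pknox act upstream of them or together with them.

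One locus inside the clusters held an H3.3 peak in 3 of the 4 lists. It lay in Hotair, a long non-coding RNA gene between Hoxc12 and Hoxc11. The other sequences shown are the peak upstream of Hoxd13, the posterior end of the Hoxd cluster, the centre of the peak upstream of Hoxb1, and the centre of the highest-scoring Hoxa region peak, in the non-coding gene Halr1. They are 300 bases each of mm9 (NCBIM37), chosen as the places in and beside the clusters that are described most closely below; the Hotair stretch is the middle of the part common to its 3 lists. Capitals mark CpG dinucleotides, the bases that are dense in the islands at most Hox promoters.
Hotair, chr15:102775127-102775426, plus strand: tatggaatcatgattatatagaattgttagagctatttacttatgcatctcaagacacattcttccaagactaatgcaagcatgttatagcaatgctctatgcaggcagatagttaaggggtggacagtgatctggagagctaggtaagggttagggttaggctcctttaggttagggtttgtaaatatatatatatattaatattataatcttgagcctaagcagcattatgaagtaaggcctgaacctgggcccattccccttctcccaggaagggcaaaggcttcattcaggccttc
Hoxd13 upstream, chr2:74505431-74505730, plus strand: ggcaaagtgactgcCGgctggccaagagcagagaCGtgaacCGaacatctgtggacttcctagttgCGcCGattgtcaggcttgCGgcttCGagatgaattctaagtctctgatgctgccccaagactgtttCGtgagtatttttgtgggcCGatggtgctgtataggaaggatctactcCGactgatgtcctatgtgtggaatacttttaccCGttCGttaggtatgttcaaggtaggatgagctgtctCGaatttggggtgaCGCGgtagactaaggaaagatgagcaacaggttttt
Hoxb1 upstream, chr11:96224728-96225027, plus strand: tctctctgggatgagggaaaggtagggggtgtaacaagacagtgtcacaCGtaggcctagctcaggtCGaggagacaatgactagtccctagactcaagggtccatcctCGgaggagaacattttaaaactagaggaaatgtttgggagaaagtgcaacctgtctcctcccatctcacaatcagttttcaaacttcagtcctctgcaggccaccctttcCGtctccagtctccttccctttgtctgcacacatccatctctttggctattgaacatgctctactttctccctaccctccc
Halr1, chr6:52055964-52056263, plus strand: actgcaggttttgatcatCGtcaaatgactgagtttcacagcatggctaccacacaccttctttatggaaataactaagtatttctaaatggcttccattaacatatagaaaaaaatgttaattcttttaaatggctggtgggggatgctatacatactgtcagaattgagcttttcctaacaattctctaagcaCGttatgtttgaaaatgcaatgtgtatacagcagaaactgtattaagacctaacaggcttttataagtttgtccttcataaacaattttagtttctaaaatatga
The Hotair stretch held 0 CpG dinucleotides, Halr1 held 2, Hoxb1 upstream 4 and Hoxd13 upstream 15. For comparison, the 300 bases before the 39 Hox genes held a median of 12. The central 300 bases of all peaks held a median of 3 in WT and 4 in Hira-null cells at day 0, and of 2 in both genotypes at day 15.

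Almost no Hox gene carried an H3.3 peak. In the WT day 0 list 0 of 39 Hox genes had a peak between gene start and end (exact 95% interval 0 to 9.03%), where 24.2% of all protein-coding genes had one. In the Hira-null day 0 list the count was also 0 of 39, against 13% of all genes. At day 15 it was 1 of 39 in WT (2.56%, exact interval 0.0649 to 13.5%), against 27.8% of all genes. In Hira-null cells at day 15 it was 0 of 39, against 9.37%. The one gene was Hoxb2.

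Hox genes are short, and a short gene has less room for a peak. Of the 39, 34 are up to 10 kb long and the median length is 4058 bp. Among all protein-coding genes up to 10 kb, 7.79% had a peak in WT and 2.19% in Hira-null cells at day 0, and 10.6% and 2.88% at day 15. The 34 short Hox genes had 0, 0, 1 and 0 genes with a peak in these lists. The exact interval of a count of 0 in 34 reaches 10.3%, and that of the 1 in 34 in WT at day 15 runs from 0.0744 to 15.3%. Each includes the share of short genes in its list. In this window Hox genes thus could not be told from other short genes at this gene number. The part of gene length in the gap to all genes was not tested. These intervals treat genes as separate, although neighbours in a cluster can share a peak.

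With the window widened to begin 10 kb before the transcription start site (TSS) and end 200 bp past the gene end, 4 Hox genes had a peak in WT at day 0, against 33.6% of all genes and 17.9% of those up to 10 kb. These were Hoxb1, Hoxb13, Hoxd12 and Hoxd13. In Hira-null cells at day 0 there were 2, Hoxb13 and Hoxc11, against 18.9% and 8.55%. At day 15 there were 3 in WT, Hoxb2, Hoxc11 and Hoxc13, against 37.1% and 21.4%. Hoxc11 alone had one in Hira-null cells at day 15, against 13.3% and 6.74%. In WT at day 15 the exact interval of 3 of 39, 1.62 to 20.9%, ended just below the 21.4% of short genes, while that of the 34 short Hox genes, 1.86 to 23.7%, included it. In the other 3 lists the interval of the 39 included the value of short genes. On chromosome 11, where WT peaks are dense, 1 of 10 Hoxb genes had a peak in this window in WT at day 15 (exact interval 0.253 to 44.5%), against 54.3% of the chromosome's genes up to 10 kb. In WT at day 0 it was 2 of 10 (2.52 to 55.6%), against 33.3%, which the interval includes. Between gene start and end the WT counts were 0 of 10 at day 0, against 15.8%, and 1 of 10 at day 15, against 35.2%. The exact intervals of both include these values. Across the 4 lists 7 of 39 Hox genes had a peak in the widened window and 32 had none. No share of other genes over the 4 lists together is given here, so these counts are a tally only. Of the 7, 5 belong to the posterior paralogs, groups 9 to 13, which hold 16 of the 39 genes. Hoxb1 and Hoxb2 belong to the anterior groups 1 to 4. Hoxd12 and Hoxd13 had the same peak in their windows. Hoxb13, Hoxc13 and Hoxd13 begin their clusters, so their windows reach outside. No difference between paralog groups was tested. None of the 11 genes of the central groups 5 to 8 had one in any list.

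**Figure D1:**
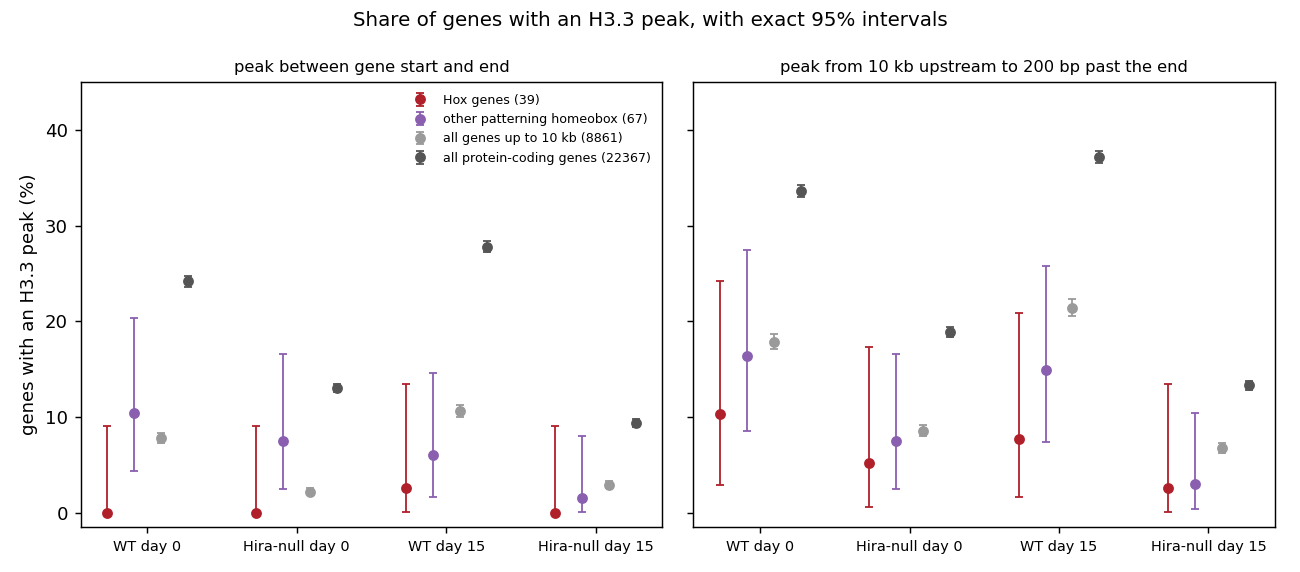
Percentage of genes with an H3.3 peak in each of the 4 lists, between gene start and end (left) and from 10 kb upstream to 200 bp past the end (right), for Hox genes, other patterning homeobox genes, all genes up to 10 kb and all protein-coding genes; bars are exact 95% intervals over genes. Hox genes lie at 0 to 2.56% on the left, below all protein-coding genes in every list, and their intervals include the value of genes up to 10 kb in every list on the left and in every list but WT day 15 on the right.

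Within 1 kb of the TSS, Hoxd13 had a WT day 0 peak, against 8.56% of all genes. Hoxb2 and Hoxc13 had WT day 15 peaks there, against 12.6%. In Hira-null cells 0 of 39 Hox genes had one on either day, against 1.28% of all genes at day 0 and 0.921% at day 15. At so low a background a count of 0 in 39 does not set Hira-null Hox promoters apart from those of other genes.

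The genes without a peak between start and end in any list were 38 of 39. They were the 11 genes of the Hoxa cluster, and Hoxb1, Hoxb3, Hoxb4, Hoxb5, Hoxb6, Hoxb7, Hoxb8, Hoxb9 and Hoxb13 in the Hoxb cluster. In the Hoxc cluster they were Hoxc4, Hoxc5, Hoxc6, Hoxc8, Hoxc9, Hoxc10, Hoxc11, Hoxc12 and Hoxc13, and in the Hoxd cluster Hoxd1, Hoxd3, Hoxd4, Hoxd8, Hoxd9, Hoxd10, Hoxd11, Hoxd12 and Hoxd13. A gene without a peak is one where the authors' peak caller listed nothing at a score of 50 or more. It is not shown to lack H3.3. No share of other genes over the lists together is given here, so the 38 of 39 is a tally only. In each single list most protein-coding genes up to 10 kb also had no peak between start and end.

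The 4 regions together held 24 peaks over the 4 lists, which joined into 18 separate loci. Of these loci, 14 appeared in 1 list, 2 in 2 lists and 2 in 3 lists. No locus appeared in all 4. Of the 24, 15 overlapped no annotated gene, 8 overlapped a long non-coding RNA gene (Halr1, Hotair or Hoxb3os) and 2 overlapped a protein-coding gene, with the Hoxb2 peak counted in both. Peaks outside annotated genes were 6 of 7 in WT at day 0, against 47.4% of the whole list, and 5 of 7 in Hira-null cells at day 0, against 70.3%. At day 15 they were 4 of 9 in WT, against 30.7%, and 0 of 1 in Hira-null cells, against 54.1%. The second protein-coding gene was Gm17649, a gene model of unknown function next to Hoxc13. The score, the peak caller's p-value on a scaled negative log10 axis, was at or above the middle of its own list in 12 of the 24.

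**Figure D2:**
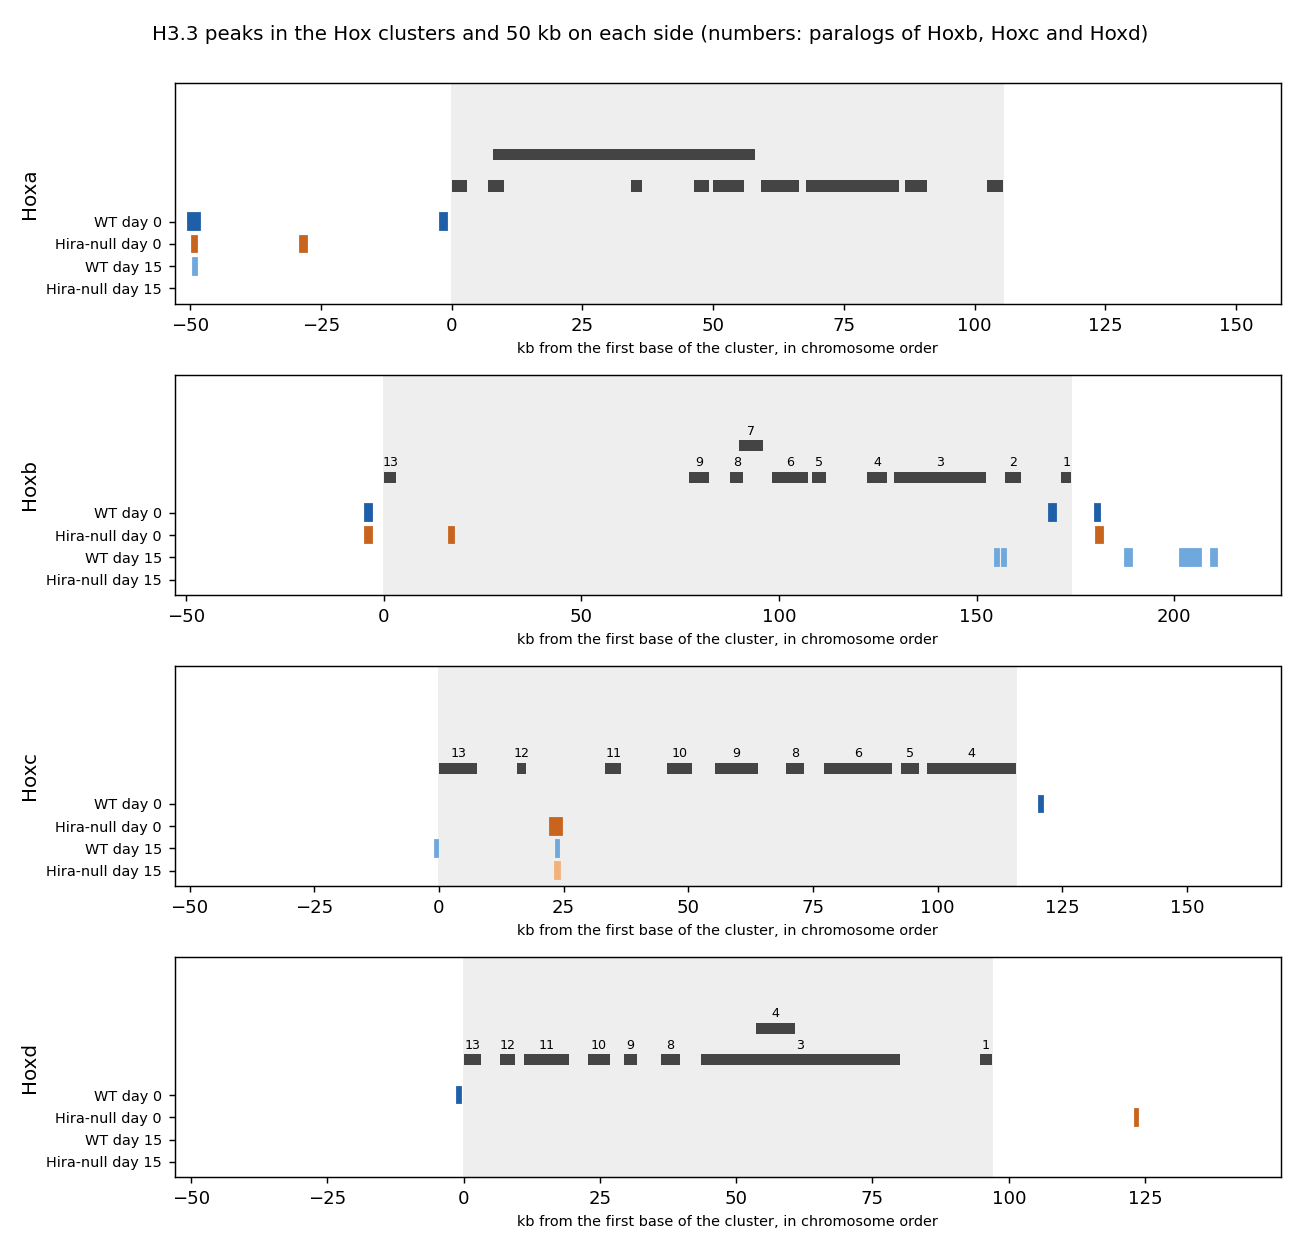
Map of the 4 Hox regions to scale, with Hox genes as dark boxes (labelled by paralog number in Hoxb, Hoxc and Hoxd), the cluster in grey and H3.3 peaks of the 4 lists as coloured boxes; the x axis is kb from the first base of the cluster in chromosome order. The clusters themselves are nearly empty, peaks gather at the Hoxb1 end of Hoxb and in Hotair, and at day 15 the Hoxd region shows no peak in either genotype.

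The region counts were 7 peaks in WT and 7 in Hira-null cells at day 0, and 9 in WT and 1 in Hira-null cells at day 15. Inside the clusters themselves there were 1, 2, 3 and 1 peaks in the same order. At each chromosome's own peak density, clusters of these lengths would hold 6.83, 3.31, 11.3 and 1.55 peaks. Most of the WT numbers came from Hoxb, on a chromosome dense in WT peaks. Its part was 4.22 peaks at day 0 and 8.33 at day 15, where 1 and 2 were found. Peaks covered 0.341% of the clusters in WT at day 0, against 1.11% of the genome. The values were 0.735% against 1.3% in Hira-null cells at day 0, 0.565% against 1.23% in WT at day 15, and 0.194% against 0.289% in Hira-null cells at day 15. All 4 lists thus had less covered length in the pooled clusters than in the genome, with 1 to 3 peaks behind each value. Hoxc alone went the other way in Hira-null cells, from 1 peak on each day. It had 1.998% against 1.18% of chromosome 15 at day 0, and 0.823% against 0.29% at day 15. The other clusters lay below their own chromosomes in every list.

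The lists themselves differ in length, with 22730 peaks in WT and 17706 in Hira-null mESCs at day 0, and 27272 and 7332 at day 15. Chromosomes 8 and 11 were dense in WT peaks. On chromosome 8 WT cells had 13.3 peaks per Mb at day 0 and 27.5 at day 15. On chromosome 11, where Hoxb lies, they had 24.3 peaks per Mb at day 0 and 47.9 at day 15. The autosomes other than 8 and 11 had 8.38 and 8.43. The Hira-null values on chromosome 11 were 7.23 and 3.51, against 7.17 and 3.03. The part of this chromosome difference in the Hoxb counts was not tested. Read depth of the libraries is unknown.

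Gene-rich windows give a nearer comparison than whole chromosomes. Among 100 kb windows with 5 or more protein-coding gene starts, 65.4% held a peak in WT at day 0, 44.5% in Hira-null cells at day 0, 65.6% in WT at day 15 and 36.9% in Hira-null cells at day 15. Peaks inside the cluster were found in 1 of 4 clusters in WT at day 0 (Hoxb), 2 in Hira-null cells at day 0 (Hoxb and Hoxc), 2 in WT at day 15 (Hoxb and Hoxc) and 1 in Hira-null cells at day 15 (Hoxc). With 4 clusters these shares are not separable from the windows. The Hoxa and Hoxd clusters held no peak between their first and last gene in any list.

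The Hoxa cluster was bare in all 4 lists, and its region peaks lay in the flank on the Halr1 side. The highest-scoring peak of the region in the WT day 0 list was at chr6:52055028-52057200, with a score of 358.74 and rank 358 of 22730. It lay in Halr1, a long non-coding RNA gene. The same locus had a Hira-null day 0 peak of 76.55 and a WT day 15 peak of 65.65, and none in Hira-null cells at day 15. A second WT day 0 peak in the flank had a score of 107.09. The highest Hira-null day 0 peak was at chr6:52076331-52077625, with a score of 130.4. In Hira-null cells at day 15 no peak was listed for 653 kb on one side of the cluster and 684 kb on the other, a peak-free stretch of 1443 kb.

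Next to the posterior end of Hoxa, Evx1, a homeobox gene that flanks the cluster, and its antisense RNA Evx1os held a peak in both genotypes at day 0, with scores of 54.96 in WT and 67.15 in Hira-null cells. Neither list had one there at day 15. Overlapping genes on opposite strands cannot be separated by a peak.

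The Hoxb region had most of the peaks. At day 0 it held 3 in WT and 3 in Hira-null cells, and at day 15 it held 6 in WT and 0 in Hira-null cells. A pair of places was shared by the genotypes at day 0. One lay about 3 kb upstream of Hoxb13, with scores of 66.1 in WT and 84.41 in Hira-null cells. The other lay about 6 kb past Hoxb1, with scores of 83.45 in WT and 177.53 in Hira-null cells; these were the highest of the region in each list, at chr11:96235687-96236858 and chr11:96235764-96237712. Only 1 Hoxb peak of each list was inside the cluster at day 0. In WT it had a score of 68.65 and lay 1.35 kb upstream of Hoxb1, the earliest Hoxb gene, in the sequence shown above. In Hira-null cells it had a score of 163.65 and lay 13.3 kb from Hoxb13, in the long gap before Hoxb9.

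At day 15 none of these 4 WT and Hira-null Hoxb loci was listed, and 6 other WT peaks were. A pair of these WT day 15 peaks lay at Hoxb2 and Hoxb3os, an antisense RNA gene of the Hoxb2 to Hoxb3 interval. One, with a score of 80.9, lay 1.64 kb from Hoxb2 within Hoxb3os. The other, chr11:96212005-96213012, overlapped Hoxb3os and the first 67 bp of Hoxb2, and its score of 53.01 placed it 25599 of 27272. Its score was near the threshold of 50, and it is the sole peak over a Hox gene in the 4 lists.

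The other 4 WT day 15 peaks of Hoxb lay between Hoxb1 and Skap1, an adaptor gene of immune cells that is the next protein-coding gene. The highest was chr11:96257087-96259785, with a score of 381.98 and rank 710 of 27272. Its neighbour had a score of 245.55. They overlapped no annotated gene and lay 27.5 and 30.4 kb past Hoxb1. The remaining scores were 100.81 and 93.34. No Hira-null day 15 peak was listed for 146 kb on the Hoxb13 side and 440 kb on the Hoxb1 side of the cluster.

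In Hoxc the Hotair locus was the only peak inside the cluster. It scored 187.74 in Hira-null cells at day 0 (chr15:102773827-102776139, 2313 bp), 54.45 in WT at day 15 (660 bp) and 130.95 in Hira-null cells at day 15 (chr15:102774763-102775715, 953 bp). The WT day 0 list had no peak there. Hotair was thus listed in both Hira-null lists, and in the WT day 15 list at a score near the threshold of 50. It was the only peak of the 4 regions in Hira-null cells at day 15, and no Hira-null peak of that day elsewhere lay closer than 93.7 kb to the Hoxc4 end and 262 kb to the Hoxc13 end. Scores depend on depth, so scores given side by side for different lists are not a comparison between them. By rank within its list the Hotair peak was 5727 of 17706 and 2425 of 7332 in the Hira-null lists. In WT at day 15 it was 24893 of 27272.

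The other Hoxc peaks were weak. The WT day 0 peak, chr15:102871791-102872749, had a score of 53.34 and lay 4.52 kb past Hoxc4. A WT day 15 peak with a score of 50.71 lay 0.233 kb upstream of Hoxc13, the gene at the posterior end, and overlapped Gm17649.

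In Hoxd the WT day 0 list had 1 peak, chr2:74505232-74505930, with a score of 58.6, at 0.437 kb upstream of Hoxd13. It had the highest CpG ratio (observed to expected) of the 24 peaks, 0.772, against a median of 0.228 for the 24. The Hira-null day 0 list had 1 peak, chr2:74629434-74630111, with a score of 52.67, 26.2 kb past Hoxd1. At day 15 no peak was listed in either genotype. The nearest WT peaks were 760 kb from the Hoxd13 end and 434 kb from the Hoxd1 end, a peak-free stretch of 1291 kb. The nearest Hira-null peaks were 416 and 191 kb away, although that list is much shorter.

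A WT peak without a same-day Hira-null peak overlapping it by 1 bp or more was called HIRA-dependent, a name for the comparison of lists and not for a cause. At day 0, 4 of 7 WT region peaks were HIRA-dependent (57.1%, exact interval 18.4 to 90.1%), against 72.7% of all WT peaks. The 3 that were not were Halr1, the place upstream of Hoxb13 and the place past Hoxb1. At day 15, 8 of 9 were (88.9%, exact interval 51.8 to 99.7%), against 91.9%, and Hotair was the exception. In the other direction, 4 of 7 Hira-null region peaks at day 0 had no WT peak, against 67.2% of all Hira-null peaks. At day 15, 0 of 1 had none, against 69.2%. Both WT intervals include the value of the whole list, so no difference between the Hox regions and the list was detectable at these numbers.

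**Figure D3:**
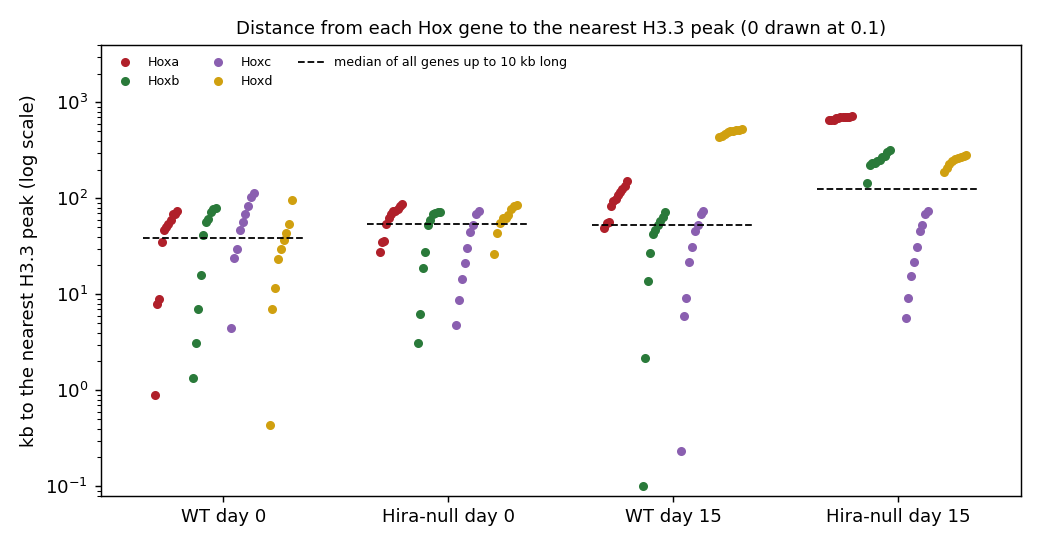
Distance in kb, on a log scale, from each of the 39 Hox genes to the nearest H3.3 peak in each list, coloured by cluster, with the median of all genes up to 10 kb as a dashed line; genes of 1 cluster are sorted by distance. In WT at day 15 the Hoxd genes are all over 400 kb from a peak, and in Hira-null cells at day 15 the Hoxc genes are the only ones near a peak.

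Distances from Hox genes to the nearest peak follow from this layout. The median was 47.1 kb in WT at day 0, against 38.4 kb for all genes up to 10 kb. It was 59.4 kb against 54.6 kb in Hira-null cells at day 0. At day 15 it was 68.6 kb against 52.5 kb in WT, and 256 kb against 127 kb in Hira-null cells. Genes of a cluster share the same peaks, so the 39 distances stand for 4 places and not for 39 independent ones. The largest distances were 113 kb (Hoxc13) and 86.9 kb (Hoxa7) at day 0, and 527 kb (Hoxd13) and 714 kb (Hoxa9) at day 15, in WT and Hira-null cells.

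By paralog group, the median distance in WT at day 0 was 12.5 kb for the 12 anterior genes, 51.0 kb for the 11 central genes and 62.2 kb for the 16 posterior genes. In WT at day 15 it was 56.1, 63.6 and 120 kb. In Hira-null cells it was 35.2, 72.2 and 57.4 kb at day 0 and 289, 244 and 258 kb at day 15. The pooled medians thus rose from anterior to posterior in both WT lists and not in the Hira-null lists, with 4 clusters behind each median. Single clusters went the other way. In WT at day 0 Hoxd1 was 95.1 kb from a peak and Hoxd13 0.437 kb. In WT at day 15 Hoxc4 was 73.8 kb away and Hoxc13 0.233 kb. In the other clusters of both WT lists the anterior end gene was nearer to a peak than the posterior one. No difference in order between genotypes was tested.

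The 4 clusters pooled held fewer peaks per Mb in WT cells than their surroundings. In WT at day 0 there were 2.03 peaks per Mb inside the 4 clusters, 17.5 within 100 kb of them, 30.3 from 100 to 500 kb and 37.0 from 500 kb to 1 Mb. In WT at day 15 the values were 6.10, 12.5, 46.9 and 51.0. Without Hoxb, whose chromosome is rich in WT peaks, they were 0, 15.0, 20.4 and 25.7 at day 0, and 3.14, 3.33, 27.5 and 26.3 at day 15. In both WT lists the pooled density inside the clusters was the lowest of the 4 distances. Single clusters differed: Hoxc in WT at day 15 had 8.64 peaks per Mb inside, from 1 peak, against 5 within 100 kb, and Hoxd had 0 at both.

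In Hira-null cells at day 0 the values were 4.06, 11.3, 5.31 and 6.50 peaks per Mb, highest within 100 kb of the clusters, and Hoxc alone had 8.64 inside, from 1 peak, against 0 within 100 kb. At day 15 they were 2.03, 1.25, 10.3 and 11.3. The values inside the clusters rest on 1 to 3 peaks in each list. The surroundings differed from cluster to cluster: around Hoxd the WT lists held 1.25 peaks per Mb at 100 to 500 kb on both days, while around Hoxc they held 51.3 and 58.8.

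**Figure D4:**
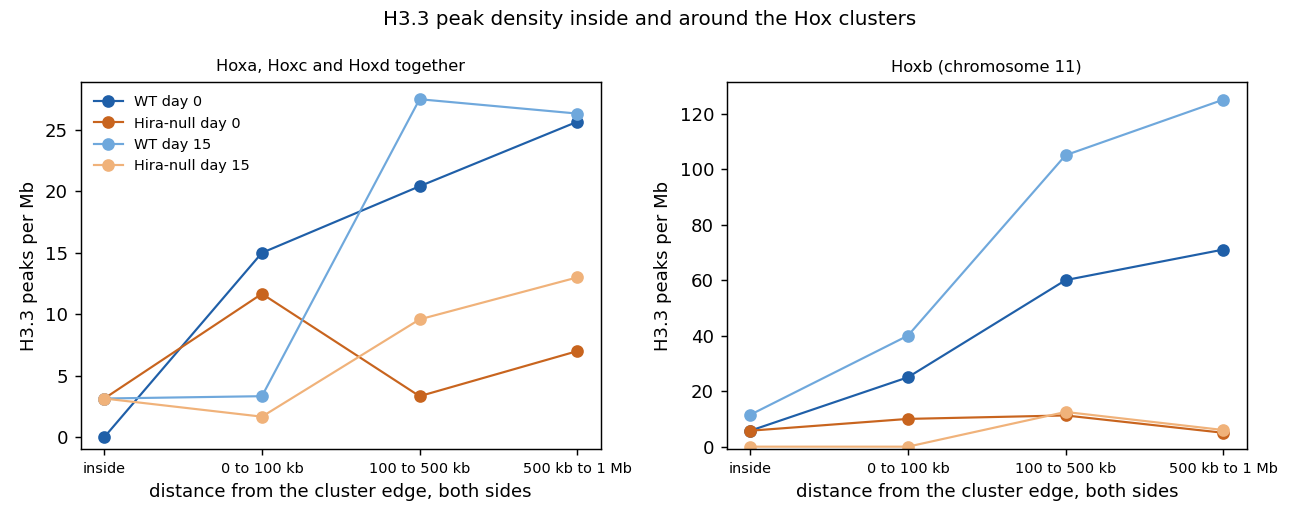
H3.3 peaks per Mb inside the clusters and at 3 distances from their edges, for Hoxa, Hoxc and Hoxd together (left) and for Hoxb on chromosome 11 (right, other y axis); lines join the 4 distances of 1 list. WT values are lowest inside the clusters on both panels and reach 125 peaks per Mb around Hoxb at day 15.

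The clusters were richer in CpG than most of the genome and than most of the peaks in their regions. GC content was 48.9 to 50.01% in the 4 clusters, against a median of 47.5% in gene-rich windows and 41.2% in all 100 kb windows. The CpG ratio was 0.349 (Hoxb), 0.357 (Hoxc), 0.460 (Hoxd) and 0.477 (Hoxa), against medians of 0.244 and 0.178 in those windows. The 24 region peaks had a median GC content of 45.9% (37.6 to 53.4%) and a median CpG ratio of 0.228 (0.0306 to 0.772), between the medians of all windows and of gene-rich ones. The medians of all peaks ran from 42.1 to 44.97% for GC and from 0.183 to 0.292 for the CpG ratio. The part of base composition in the low peak counts of the clusters was not tested.

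Besides the Hox genes, 40 annotated genes lie at least partly in the regions, and 6 of these had a peak in at least 1 list. No share of all annotated genes stands beside this count, so it is a tally only. Of the 6 protein-coding ones, Ttll6 and Gm17649 had a peak, both in WT at day 15 only. Of the 34 others, Halr1, Hotair, Hoxb3os and Evx1os had one. The Ttll6 and Evx1os peaks lay beyond the regions, in parts of these genes outside the 50 kb flanks, and are not among the 24 region peaks. Halr1 has been described as a regulatory RNA of the Hoxa cluster, and Hotair as one that acts on Hoxd.

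Among genes that flank the clusters, 12 in all, 5 had a peak in WT and 2 in Hira-null cells at day 0, and 6 and 1 at day 15. As shares these are 41.7, 16.7, 50 and 8.33% in WT day 0, Hira-null day 0, WT day 15 and Hira-null day 15, against 24.2, 13, 27.8 and 9.37% of all genes, and every exact interval of the 12 includes the value of all genes. Cbx5, which encodes heterochromatin protein HP1 alpha and lies beyond Hoxc, had 6, 0, 12 and 2 peaks in the same order. Skap1, beyond Hoxb1 on chromosome 11, had 5, 1, 8 and 0. Skap2, beside Hoxa, had 3, 0, 3 and 0, and Hibadh, beyond Evx1, had 1, 0, 5 and 0. Evx2, Lnp and Mtx2, which flank Hoxd, had none in any list, and neither did Calcoco1 or Smug1 beside Hoxc.

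Other homeobox and paired-box families that pattern the embryo (Pax, Dlx, Lhx, Irx, Nkx and others, 67 genes) were counted in the same way. Of these, 7 had a peak in WT and 5 in Hira-null cells at day 0, or 10.4% and 7.46%, against 24.2% and 13% of all genes. At day 15 the counts were 4 and 1, or 5.97% and 1.49%, against 27.8% and 9.37%. The 44 that are up to 10 kb long had shares of 2.27, 0, 4.55 and 0%, against 7.79, 2.19, 10.6 and 2.88% of all such genes, and their exact intervals include those values. The most peaks that a gene had over the 4 lists was 3. Pax5 had its 3 in WT at day 0. Pax6 and Lmx1b had theirs in both genotypes at day 0, and Pax7 had 1 in each list but WT day 15. The 95% intervals of these shares overlap those of the Hox genes in every list.

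The partners of Hox proteins were read as a separate list. Of 9 TALE cofactor genes, 7 had a peak in WT at day 0 and 6 at day 15, and 0 had one in Hira-null cells on either day. The WT shares, 77.8% and 66.7%, stand against 24.2% and 27.8% of all genes, for a list chosen with earlier results of these data known. The Hira-null count of 0 of 9 has an interval up to 33.6%, which includes the 13% and 9.37% of all genes. Meis1, a cofactor of posterior Hox proteins that is also a cardiac gene, lies on chromosome 11 and had 1, 0, 33 and 0 peaks in the order above. Pbx3 had 2, 0, 4 and 0, Meis2 had 2, 0, 3 and 0, and Pknox2 had 3, 0, 2 and 0. These genes are long, from 139 to 256 kb for the 4 named, and longer genes hold more peaks. The part of length, and of the dense chromosome for Meis1, in the counts was not tested.

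Among genes whose products silence the clusters, both genotypes had members with a peak. Of 15 Polycomb genes, 7 and 4 had a peak in WT and in Hira-null cells at day 0, and 8 and 2 at day 15. The shares, 46.7 and 26.7% at day 0 and 53.3 and 13.3% at day 15, stand against 24.2 and 13% and 27.8 and 9.37% of all genes, and all 4 exact intervals include these values. Jarid2, which helps to recruit the Polycomb complex PRC2, had 33, 4, 9 and 1 peaks. Suz12, a PRC2 core subunit on chromosome 11, had 13, 0, 14 and 0, Phc1 had 6, 1, 2 and 0, and Ezh1, also on chromosome 11, had 0, 0, 7 and 0. Of 7 trithorax and insulator genes, 5 and 1 had a peak at day 0 and again 5 and 1 at day 15. The WT share was 71.4% on both days, against 24.2 and 27.8% of all genes. Its exact interval, 29.0 to 96.3%, lies above both values, for a list chosen with earlier results of these data known. The Hira-null share was 14.3% on both days, against 13 and 9.37%. Its interval, 0.361 to 57.9%, includes them. Ctcf, whose protein binds boundaries within the Hox clusters, had 5, 0, 12 and 0 peaks, Ash2l had 2, 0, 7 and 0 (both on chromosome 8), and Mll1, the classic activator of Hox genes, had 2, 1, 4 and 2. The part of gene length and of the dense chromosomes in these counts was not tested.

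Of 7 caudal and retinoic acid genes, 3 and 1 had a peak at day 0, and 2 and 1 at day 15. The shares, 42.9 and 14.3% at day 0 and 28.6 and 14.3% at day 15, have exact intervals that include the 24.2, 13, 27.8 and 9.37% of all genes. All were retinoic acid receptors: Rara, on chromosome 11, had 1, 0, 8 and 0 peaks, Rarb had 1, 3, 6 and 1, and Rarg had 4, 0, 0 and 0. The caudal genes Cdx1, Cdx2 and Cdx4 and the retinoic acid enzyme gene Cyp26a1 had none in any list.

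Peaks over markers of both stages were read as a description of the labels only. All 7 pluripotency genes (such as Esrrb, with 11 peaks, and Tet1, with 22) had a peak in WT at day 0, 4 had one in Hira-null cells at day 0, and 1 had one in each genotype at day 15. As shares of the 7 these are 100 and 57.1% at day 0 and 14.3% in each genotype at day 15. Among all genes the shares were 24.2 and 13% at day 0, and 27.8 and 9.37% at day 15. Of 9 cardiac genes, 2 and 1 had a peak at day 0 and 5 and 2 at day 15. These are 22.2 and 11.1% at day 0, and 55.6 and 22.2% at day 15. Their exact intervals include the values of all genes, so the cardiac counts could not be told from those of other genes. Gata4 had 0, 1, 6 and 5 peaks. The contractile genes Tnnt2 and Actc1 had none in any list, and neither did Hand2 or Nkx2-5.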

How the data were processed

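A peak list per condition was used. According to the submitters' processing notes the authors called peaks with MACS 1.4.2 on mm9; their methods add alignment of paired-end reads with Bowtie and removal of duplicates with Samtools. The deposited score is the caller's p-value on a scaled negative log10 axis, with a lowest score of 50 in each list, and was ranked only within a list. The 4 input libraries and read depths were not analysed here. Peaks were set against GENCODE M1 genes on NCBIM37, with an overlap of at least 1 bp. Hotair, Halr1 and Evx1os are RefSeq names (GRCm38.p6, names only) of gene models listed under other symbols. Shares carry 95% Clopper-Pearson intervals for counting error alone. With 1 ChIP library per condition, nothing was tested. Genes under a peak were named by rule: each Hox gene, the highest peak per region and list, and up to 4 members of every other list. Values of some single genes are not reported here. Members and lists were chosen with earlier results of these data known. Counts from Python 3.11.15 with pandas 2.3.3 were checked against bedtools 2.31.1 (0 of 22367 genes differed) and tested on planted peaks. Alternatives changed the gene window, score, list length, overlap, flanks and peak merging.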

Additional observations from a re-analysis of the deposited data

Results flagged for a closer look

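The Hoxb region was flagged because its peak number moved in opposite directions between days in the 2 genotypes. It went from 3 to 6 peaks in WT and from 3 to 0 in Hira-null cells, so the changes were 3 and -3 and differed by 6 peaks. The 4 regions together went from 7 to 9 in WT and from 7 to 1 in Hira-null cells, changes of 2 and -6 that differed by 8 peaks, of which 6 came from Hoxb. Neither difference was tested, since each condition had 1 ChIP library. The whole lists moved in the same directions, from 22730 to 27272 peaks in WT and from 17706 to 7332 in Hira-null cells. On chromosome 11 the WT density went from 24.3 to 47.9 peaks per Mb and the Hira-null density from 7.23 to 3.51. The part of list length and of the chromosome in the Hoxb change was not tested.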

How the results depend on the processing

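No peak count here has a replicate, and depth is unknown, so a missing peak limits only what the caller listed. No paired analysis was possible because each condition has 1 ChIP library. The number of Hox genes with a peak was 0, 0, 1 and 0 (WT day 0, Hira-null day 0, WT day 15, Hira-null day 15). From 10 kb upstream to 200 bp past the gene it was 4, 2, 3 and 1, and within 1 kb of the TSS it was 1, 0, 2 and 0. The WT day 15 count fell to 0 with the coding span, a score of at least 100, an equal number of peaks (7332 per list) or at least 50% of the peak inside the gene, since the Hoxb2 peak scored 53.01 and covered 67 bp of the gene. The wide window with scores from 100 up, or with equal lists, both chosen after the data were seen, gave 0, 1, 0 and 1, and the gene was Hoxc11 each time. WT region peaks without a Hira-null peak were 4 of 7 at day 0 and 8 of 9 at day 15. Without flanks they were 1 of 1 and 2 of 3, with scores under 100 left out of both lists 2 of 2 and 3 of 3, and with equal lists 2 of 2 and 2 of 2. With 100 kb flanks they were 9 of 15 at day 0 and 12 of 13 at day 15. The remaining settings (an overlap of at least 50% of the WT peak, Hira-null peaks widened by 1 kb, peaks under 1 kb apart merged) stayed within 1.5 times the value given.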

Other observations

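Beyond the 50 kb flanks, the Hoxa surroundings held a row of WT day 0 peaks between Skap2 and Halr1. There were 3, with scores of 98.91, 159.77 and 229.8, and 1 Hira-null day 0 peak of 69.55 lay over the highest of them. No list had a peak there at day 15. On the other side, between Evx1 and Hibadh, a Hira-null day 0 peak of 207.02 and a WT day 0 peak of 97.37 overlapped. Before Hoxb13, a WT peak of 265.67 at day 0 and one of 227.27 at day 15 lay in the same place, and neither Hira-null list had a peak in the stretch from 50 to 100 kb.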
